A study of Mus musculus with 6 samples.

Results

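The 10 genes described here encode vascular endothelial growth factors (VEGFs), the angiopoietins and the VEGF receptors: Vegfa, Vegfb, Vegfc, Figf, Pgf, Flt1, Kdr, Flt4, Angpt1 and Angpt2. They were chosen by gene symbol in the platform annotation of the array, and all 10 were measured, each by 1 probe, among 16446 named genes and 23473 probes. Figf is the older symbol of Vegfd, which encodes VEGF-D. Messenger RNA was profiled on 6 single-colour arrays of hepatic stellate cells, the pericytes of the liver sinusoid, from mice with cirrhosis induced by carbon tetrachloride (CCl4). There were 3 wild-type arrays and 3 arrays of SEPT4-KO mice, which lack the septin gene Sept4, and all 6 came from CCl4-treated mice, so no uninjured liver is included. The labels give no age, sex or strain, no type of knockout allele and no method of isolating the cells. They speak of RNA per mouse but do not say that each array is a separate mouse. The p-values therefore measure the spread between these arrays, which may be technical.

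VEGF ligands are secreted dimers that act through receptor tyrosine kinases. VEGF-A binds FLT1 (VEGFR1) and KDR (VEGFR2), and placental growth factor and VEGF-B bind FLT1. VEGF-C and VEGF-D act on FLT4 (VEGFR3), and processed VEGF-C also acts on KDR. Angiopoietin 1 activates the receptor TIE2, encoded by Tek, and angiopoietin 2 is made where vessels remodel and often opposes it. In the liver, stellate cells wrap the sinusoids and supply the endothelial cells with such factors, while the receptors are mainly known from endothelial cells, with FLT1 and KDR also described on activated stellate cells.

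On the whole series, the values were log2 signals with an array median of 5.02 on each array, and array lowest values between 0.00 and 0.32. None of the 10 genes lay at the lowest value of any array. The brightest probe averaged 15.7 on wild-type arrays and 16.7 on those of the knockout, and no source used here says how the arrays were divided over runs, so processing and genotype cannot be told apart. Stellate cell genes ranged from bright to dim. The wild-type and knockout mean signals were 15.25 and 14.69 for Acta2, 9.34 and 9.64 for Pdgfrb and 6.83 and 6.42 for desmin (Des). Ngfr was dim at 3.57 and 3.52, and Gfap at 1.75 and 2.21. Markers of other cells also varied. The macrophage gene Marco read 10.52 and 10.45, and the hepatocyte genes Fgb 9.37 and 9.40 and Apoa1 2.73 and 2.70. The purity of the cells was not tested. No probe is named Sept4, and the deleted gene itself is not analysed here.

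The promoter sequences of Figf, Flt1 and Vegfa are shown because these 3 genes had the largest differences between the genotypes that passed the test, Figf upwards and the others downwards. Each is the 250 bases before the transcription start in RefSeq on GRCm38.p6, written 5′ to 3′ on the strand of the gene. Figf lies at chrX:164373272-164373521 on the plus strand, Flt1 at chr5:147726012-147726261 on the minus strand and Vegfa at chr17:46032378-46032627 on the minus strand. Capitals mark TATAAA, TGACGTCA and GGGCGG on either strand, so that GGGCGG on the opposite strand reads as its reverse complement, CCGCCC.
Figf: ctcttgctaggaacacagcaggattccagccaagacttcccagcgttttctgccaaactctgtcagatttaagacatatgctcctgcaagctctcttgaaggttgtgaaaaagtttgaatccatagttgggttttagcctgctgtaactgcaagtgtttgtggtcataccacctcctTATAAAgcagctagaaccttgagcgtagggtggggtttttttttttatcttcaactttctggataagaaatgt
Flt1: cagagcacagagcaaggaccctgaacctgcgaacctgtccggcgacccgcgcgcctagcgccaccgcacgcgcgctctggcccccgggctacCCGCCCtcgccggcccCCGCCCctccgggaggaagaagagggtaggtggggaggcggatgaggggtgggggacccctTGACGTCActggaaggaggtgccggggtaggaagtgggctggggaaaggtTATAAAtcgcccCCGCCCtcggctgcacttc
Vegfa: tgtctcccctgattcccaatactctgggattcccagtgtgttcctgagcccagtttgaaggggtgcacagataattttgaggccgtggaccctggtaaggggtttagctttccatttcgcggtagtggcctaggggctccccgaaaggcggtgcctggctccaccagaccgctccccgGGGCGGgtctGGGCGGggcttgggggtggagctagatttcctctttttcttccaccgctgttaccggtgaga

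The Figf window held 1 TATAAA, from 73 to 68 bases before the start, and no GGGCGG. The Flt1 window held 1 TATAAA, from 31 to 26 bases before the start, 1 TGACGTCA, the full cyclic AMP response element, from 81 to 74 bases before it, and 3 copies of GGGCGG, a core of Sp1 sites. The Vegfa window held 2 copies of GGGCGG and neither of the other motifs. Of 32851 promoter windows of the same length in that RefSeq table, 12.4% held TATAAA, 1.55% TGACGTCA and 32.7% GGGCGG on either strand. Neither ACGTG, the core of the hypoxia response element, nor TGANTCA, the AP-1 site, was found in these 3 windows, where 16.6% and 6.75% of all windows held them. Sequence outside the windows was not searched, so sites further from the start would be missed. The motifs were chosen after the sequences were read, the motif letters do not overlap one another in these windows, and a match in letters does not show a factor's binding. Of the 10 genes, 8 had a promoter entry, and of these 8 Figf alone lacked GGGCGG. The Flt1 window lies inside the annotated span of the gene, which begins further upstream.

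The comparison of the genotypes asks how VEGF and angiopoietin expression differs in stellate cells of the cirrhotic liver without Sept4. Of the 10 genes, 9 passed an adjusted p of 0.05 in limma with Benjamini-Hochberg adjustment over all probes, 4 of them higher in the knockout (Figf, Vegfb, Flt4 and Angpt1) and 5 lower (Vegfa, Flt1, Pgf, Vegfc and Angpt2). Kdr did not pass. Across all probes 42.7% passed, 26.7% higher and 16.0% lower, and brighter probes passed more often: 19.1% at a signal of 2 to 4, 44.2% at 4 to 6, 64.4% at 6 to 8, 69.3% at 8 to 10 and 70.8% at 10 to 12. The 10 genes had mean signals from 3.4 to 11.9 in wild-type cells. Their differences were of ordinary size, with a median absolute log2 difference of 0.41 against 0.39 over all probes, and 1 of the 10, Figf, both passed and differed at least 2-fold, against 7.02% of all probes. The genotypes did not overlap for 9 of the 10 genes, which also held for 56.2% of all probes. All probes together had a median difference of 0.12, which quantile normalisation brought to 0.02 and cyclic loess to 0.01, and the directions of the 9 genes were the same under both scalings. In such bulk samples, fewer cells that express a gene and less of its RNA per cell cannot be told apart.

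**Figure D1:**
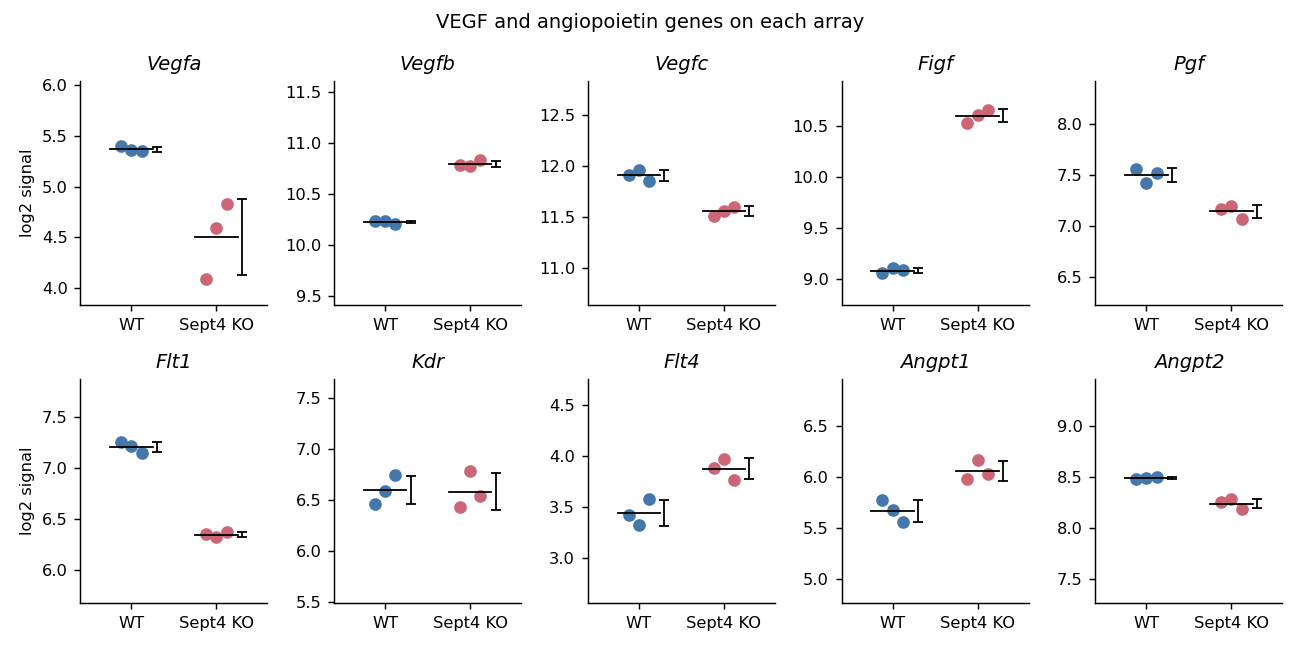
Log2 signal of the 10 genes on each of the 3 wild-type (blue) and 3 Sept4 knockout (red) arrays, 1 point per array, with the group mean (black line) and SD (bar), every panel spanning the same range on the log2 scale. The genotypes overlap for Kdr and for none of the other 9 genes, and the knockout arrays of Vegfa are spread from 4.10 to 4.83.

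Among the ligands, Figf, which encodes VEGF-D, a ligand known for lymphatic growth, rose most. Its log2 signals were 9.05, 9.10 and 9.08 on the wild-type arrays and 10.53, 10.61 and 10.66 on the knockout arrays. The arrays of each genotype lay within 0.2 of each other and the genotypes were far apart. The means were 9.08 ± 0.02 and 10.60 ± 0.06 (SD, n = 3), a log2 difference of 1.52 ± 0.05 (SE; 95% confidence interval 1.38 to 1.66) or 2.87-fold (adjusted p = 0.000291 in limma). A larger rise was seen for 2.11% of all probes. After quantile normalisation the rise was 1.36.

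Vegfb, the ligand of FLT1 linked to fatty acid uptake, rose by a smaller amount. It read 10.23, 10.23 and 10.21 in wild-type cells and 10.78, 10.77 and 10.83 in knockout cells. The arrays of a genotype were nearly equal, and the genotypes did not overlap. It rose by 0.57 ± 0.04 (SE) on the log2 scale, or 1.48-fold, at an adjusted p of 0.000866 in limma. Probes with signals of 10 to 12 had a median difference of 0.22, and after quantile normalisation the rise of Vegfb was 0.39.

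Vegfa, the main driver of blood vessel growth, fell, and its knockout arrays differed among themselves. Its signals were 5.39, 5.36 and 5.35 in wild-type cells, against 4.10, 4.59 and 4.83 without Sept4. All knockout arrays were below all wild-type arrays, with the first the lowest. The means were 5.37 ± 0.02 and 4.50 ± 0.37 (SD, n = 3), a log2 difference of -0.86 ± 0.19 (SE; 95% confidence interval -1.36 to -0.37) or a 1.82-fold lower level, at an adjusted p of 0.0194 by limma. The call was lost without wild-type replicate 1, 2 or 3, at adjusted p-values of 0.0622, 0.0606 and 0.0594, with differences between -0.85 and -0.87. The probe was of middling brightness, with 49.3% of all probes dimmer, and the files do not say which splice forms of Vegfa it reads.

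Pgf, which encodes placental growth factor, fell slightly, from 7.56, 7.43 and 7.52 to 7.17, 7.19 and 7.07. The groups were separated by less than 0.3. On the log2 scale Pgf differed by -0.36 ± 0.06 (SE), at an adjusted p of 0.00885 in limma. Vegfc, the ligand most closely related to Figf, went the opposite way from it, from 11.91, 11.96 and 11.85 to 11.51, 11.56 and 11.60. All knockout arrays were lower, with a difference of -0.35 ± 0.06 (SE; adjusted p = 0.00577 in limma). After quantile normalisation Vegfc fell by 0.57, which is 1.6 times the value as deposited.

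Among the receptors, Flt1 fell, Flt4 rose and Kdr did not pass. Flt1 encodes VEGFR1, whose soluble form traps VEGF-A. It read 7.26, 7.22 and 7.15 in wild-type cells and 6.35, 6.33 and 6.37 in knockout cells. The knockout arrays lay within 0.05 of each other and well below the wild-type arrays. The means were 7.21 ± 0.05 and 6.35 ± 0.02 (SD, n = 3), a log2 difference of -0.86 ± 0.05 (SE; 95% confidence interval -0.99 to -0.73) or 1.82-fold lower (adjusted p = 0.000538 in limma). The files do not say whether the probe reads the soluble form, the membrane form or both.

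Kdr, the main signalling receptor of VEGF-A, read 6.46, 6.59 and 6.74 in wild-type cells and 6.43, 6.78 and 6.54 in knockout cells. The genotypes overlapped throughout. The log2 difference was -0.02 with a 95% confidence interval of -0.33 to 0.30 and an adjusted p of 0.934 in limma. A change of up to about 0.3 in either direction was therefore not excluded for Kdr. Flt4, the receptor of VEGF-C and VEGF-D, was the dimmest of the 10 genes. It read 3.42, 3.33 and 3.57 in wild-type cells and 3.88, 3.97 and 3.76 in knockout cells, a difference of 0.43 ± 0.09 (SE; adjusted p = 0.0162 in limma). The groups lay close together, with a gap of under 0.2. The call was lost without wild-type replicate 1 or 2 or knockout replicate 1 or 2, at adjusted p-values of 0.0544, 0.0510, 0.0505 and 0.0516, and at 0.161 when the variance prior followed the signal.

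The angiopoietins moved apart. Angpt1, the TIE2 agonist that pericytes supply to vessels, read 5.78, 5.68 and 5.56 in wild-type cells and 5.98, 6.17 and 6.03 in knockout cells. All knockout arrays were higher, by 0.39 ± 0.09 (SE) on average (adjusted p = 0.0180 in limma). The call was lost without wild-type replicate 2, at 0.0584, and without knockout replicate 2, at 0.0515. Angpt2, its context-dependent antagonist, read 8.48, 8.49 and 8.50 in wild-type cells and 8.25, 8.28 and 8.19 in knockout cells. The wild-type arrays were almost identical and the knockout arrays all lower, with a difference of -0.25 ± 0.05 (SE; adjusted p = 0.0111 in limma). It was the smallest change of the 9 that passed, and 66.8% of all probes had a larger absolute difference.

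**Figure D2:**
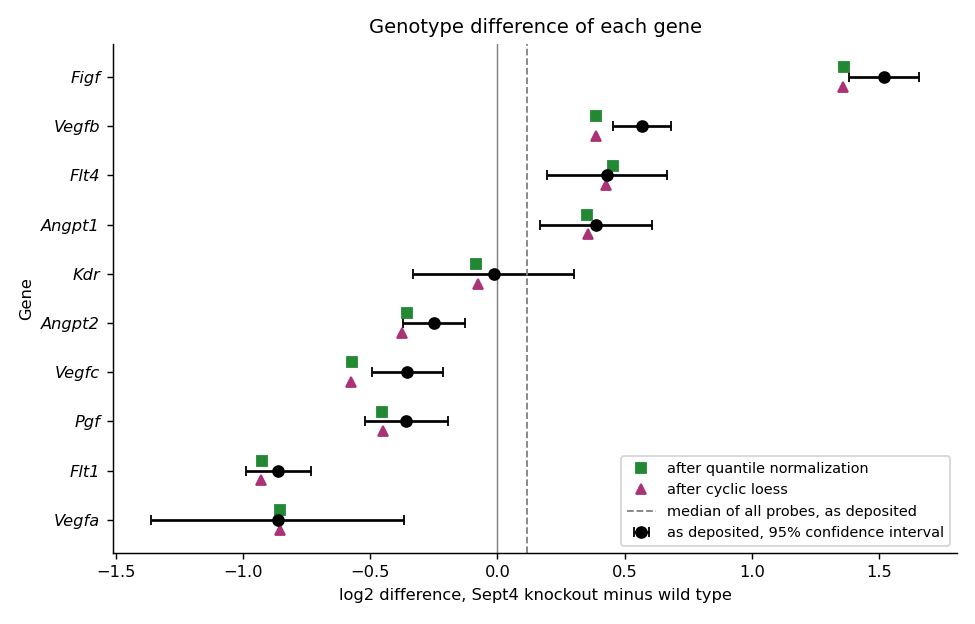
Log2 difference of each gene, knockout minus wild type, from the deposited values (black, with the 95% confidence interval from limma) and from quantile-normalised (green squares) and cyclic loess (purple triangles) values, with the median of all probes as a dashed line. Figf stands apart at 1.52, Flt1 and Vegfa lie lowest at -0.86, and the interval of Kdr spans 0.

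Ratios of related genes within an array were compared next, since a shift of a whole array cancels in them. A difference that depends on signal does not cancel when the genes of a pair differ in brightness. Probes with signals of 2 to 4 had a median difference of -0.009, and those of 10 to 12 one of 0.22. The ratios show how unequally both genes of a pair changed, not their relative abundance. The genotypes did not overlap for any of the 5 pairs. For Figf and Vegfc, Vegfa and Vegfb, and Angpt2 and Angpt1 this followed from the single genes, which were already separated in opposite directions. The share of other probe pairs without overlap was not computed. A two-sided exact permutation test returned p = 0.1 for each pair, which is the lower limit of this design, so none could pass 0.05, and the adjusted value over the 5 pairs was also 0.1. The log2 ratio of Figf to Vegfc, both ligands of FLT4, was -2.86, -2.86 and -2.77 on the wild-type arrays and -0.98, -0.95 and -0.94 on the knockout arrays. It moved by 1.88 towards Figf, or 3.67-fold, with arrays of a genotype within 0.1 of each other. The log2 ratio of Vegfa to Vegfb moved by -1.43 away from Vegfa, from a mean of -4.86 ± 0.02 to -6.29 ± 0.35 (SD, n = 3). That of Angpt2 to Angpt1 was 2.71, 2.81 and 2.94 on the wild-type arrays and 2.28, 2.11 and 2.16 on the knockout arrays. It moved by -0.64 away from Angpt2, or 1.56-fold. That of Kdr to Flt1 moved by 0.85 towards Kdr, from -0.62 ± 0.19 to 0.23 ± 0.20 (SD, n = 3). That of Pgf to Vegfa moved by 0.51 towards Pgf, but by 0.29 without knockout replicate 1, the array with the lowest Vegfa.

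**Figure D3:**
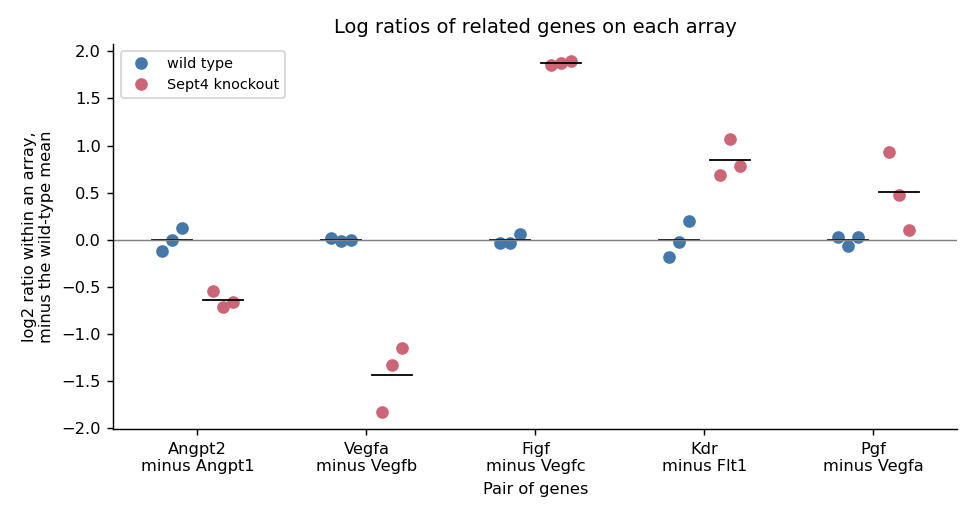
Log2 ratio of 5 pairs of genes on each array, minus the mean of the wild-type arrays (wild type blue, knockout red, group means as black lines). Figf against Vegfc moved by 1.88 and Vegfa against Vegfb by -1.43, and the knockout arrays of Pgf against Vegfa are widely spread.

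Probes with similar values were sought among 13784 other probes with a gene symbol, leaving out symbols that are clone names. The measure was the root mean square distance of the values centred on each probe's mean over the 6 arrays. For the 3 genes with the largest differences, the probes at the smallest distances are given. For Figf these were G0s2, an inhibitor of the lipase ATGL, at a distance of 0.017, the matrix proteoglycan gene Prelp at 0.023 and the elastic fibre gene Emilin1 at 0.027, with differences of 1.53, 1.53 and 1.49. For Flt1 they were Ndufb4, a complex I subunit, Diap3, a formin, and the kinase gene Pak3, at distances of 0.031 to 0.032, with differences of -0.83, -0.90 and -0.87. For Vegfa they were Nfatc3, Kti12 and Fgf20, at distances of 0.061, 0.075 and 0.094, with differences of -0.95, -0.845 and -0.75. Fgf20 did not pass (adjusted p = 0.0634 in limma). Vegfa had no neighbour as close as those of Figf and Flt1. The distance was computed on the same 6 arrays as the differences and is a description.

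Other genes that act with these ligands and receptors were taken from 9 lists, described by their counts beside the share of all probes that passed, 42.7%. Among 8 co-receptors, TIE receptors and related genes, 2 rose and 1 fell, with a median of 0.13. The vascular integrin genes Itgb3 and Itgav rose by 0.97 and 0.51, and Ptprb, the phosphatase VE-PTP that acts on TIE2, fell by 0.48. The receptor genes did not pass: the adjusted p in limma was 0.288 for Tek, the TIE2 gene, 0.769 for Tie1 and 0.0834 for the neuropilin gene Nrp1, whose differences were -0.33, 0.04 and 0.18. Nrp1 and Itga9 passed with the variance prior that followed the signal and without the dimmest probes, which made 4 that rose.

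The class 3 semaphorins, secreted ligands that bind neuropilins and plexins, had 2 of 7 higher and 2 lower, with a median of -0.82. After quantile normalisation or cyclic loess, 1 was higher and 3 were lower, with Sema3a beside Sema3c and Sema3e. Sema3c and Sema3e fell 2.51-fold and 2.31-fold, whereas Sema3f, a ligand of neuropilin 2, rose 2.24-fold. Sema3c went from 6.98 ± 0.01 to 5.65 ± 0.16 (SD, n = 3) and Sema3f from 5.03 ± 0.09 to 6.20 ± 0.06 (SD, n = 3). Sema3d rose by 0.19, a call lost without wild-type replicate 1 or 2 or knockout replicate 1 or 2, at adjusted p-values from 0.0597 to 0.0784, and at 0.0604 after quantile normalisation. Among 6 other angiopoietin and angiopoietin-like genes, Angptl2, a secreted inflammatory mediator, fell by 1.26, and no other passed. The median of these 6 was -0.77. In this list, 2 fell without wild-type replicate 2 or knockout replicate 1 or 2, and 1 rose without knockout replicate 3. With the variance prior that followed the signal, 3 fell, with Angptl4 and Angptl7 beside Angptl2, and 1 rose, Angptl6.

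Proteases and other genes that process VEGF-C and VEGF-D or release VEGF from the matrix had 6 of 12 higher and 0 lower, with a median of 0.66. Stromelysin 1 (Mmp3) rose by 1.32, heparanase (Hpse) by 0.91 and cathepsin D (Ctsd) by 0.79. After quantile normalisation these rises were 1.16, 0.82 and 0.50. Hpse went from 7.05 ± 0.02 to 7.96 ± 0.05 (SD, n = 3) and cuts the heparan sulfate chains that hold VEGF-A. Gelatinase B (Mmp9) rose by 1.59 from near the lowest values, or by 0.82 with a linear offset, and its call was lost without wild-type replicate 2 or 3 or knockout replicate 1, at adjusted p-values of 0.0815, 0.0853 and 0.0735. Ccbe1, the cofactor of VEGF-C cleavage, had a difference of -0.02 (adjusted p = 0.800 in limma), and the proprotein convertase gene Furin one of 0.33 (adjusted p = 0.114).

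Genes of oxygen sensing, which controls Vegfa transcription, moved in both directions. Of 10 hypoxia-inducible factors and sensors, 2 rose and 3 fell. The prolyl hydroxylase gene Egln3 fell from 7.61 ± 0.04 to 6.85 ± 0.03 (SD, n = 3) and Egln2 rose by 0.60. The dim genes Hif3a and Arnt differed by -1.93 and 0.73, or by -1.22 and 0.615 with a linear offset. Hif3a lay at the lowest value on 1 array. The call of Hif3a was lost without wild-type replicate 1 or 3, at 0.0588 and 0.0515, and that of Arnt without wild-type replicate 2 or 3 or knockout replicate 1 or 2, at 0.0625 to 0.0701. Epas1, the remaining one that fell, differed by -0.19 (adjusted p = 0.0314 in limma). Its call was lost on leaving out any array but wild-type replicate 1, at 0.0757 to 0.103. Hif1a differed by -0.15 and did not pass (adjusted p = 0.0730 in limma). After quantile normalisation 5 of the 10 fell, with Hif1a at -0.31 and Egln1 at -0.27 among them. Without wild-type replicate 3, 1 rose and 1 fell. Of 13 genes induced by hypoxia, 5 rose and 4 fell, and after quantile normalisation 3 rose. Pfkfb3, a regulator of glycolysis, fell by 0.69, Ankrd37 by 0.65 and Ndrg1 by 0.61, and the oxidase gene Ero1l rose by 0.56. The call of Ankrd37 was lost without wild-type replicate 1 or 2, at 0.0533 and 0.0536.

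Of 10 endogenous inhibitors of angiogenesis, 3 rose and 2 fell, and both thrombospondins that bind the receptor CD36 were among them. Thbs1 averaged 9.75 ± 0.07 in wild-type and 8.23 ± 0.01 in knockout cells (SD, n = 3), a fall of 2.86-fold, whereas Thbs2 rose from 8.04 ± 0.01 to 9.50 ± 0.08 (SD, n = 3), or 2.74-fold. Serpinf1, which encodes pigment epithelium-derived factor, fell by 1.04, and Adamts1, a protease that binds VEGF-A, rose by 0.62. Sparc, the remaining one that rose, by 0.23, differed by -0.04 after quantile normalisation (adjusted p = 0.570 in limma). Its call was also lost without wild-type replicate 1, 2 or 3 or knockout replicate 2, at 0.0558 to 0.0610. Among 29 transducers of VEGF receptor signals, 11 rose and 5 fell. With the replicate block 7 rose and 4 fell, and after quantile normalisation 9 rose and 5 fell. Rac1, among the 11 that rose, differed by 0.24 as deposited and by -0.05 after quantile normalisation. The catalytic subunit gene Pik3ca rose by 0.88 and Mapk3, the ERK1 gene, by 0.83, whereas the adaptor gene Grb14 fell by 1.07 and focal adhesion kinase (Ptk2) by 0.82.

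Genes known to be induced by VEGF in endothelial cells had 4 of 9 higher and 3 lower, and 1 of the 9 is Angpt2 itself. Esm1, which encodes the proteoglycan endocan of endothelial tip cells, averaged 7.15 ± 0.08 in wild-type and 5.61 ± 0.07 in knockout cells (SD, n = 3), a fall of 2.91-fold. The Notch ligand gene Dll4 fell by 1.25, and the orphan nuclear receptor gene Nr4a1 rose by 0.62. Apln, which encodes apelin, rose by 0.65, a call lost without wild-type replicate 1 or 2 or knockout replicate 1 or 2, at 0.0640 to 0.0862.

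**Figure D4:**
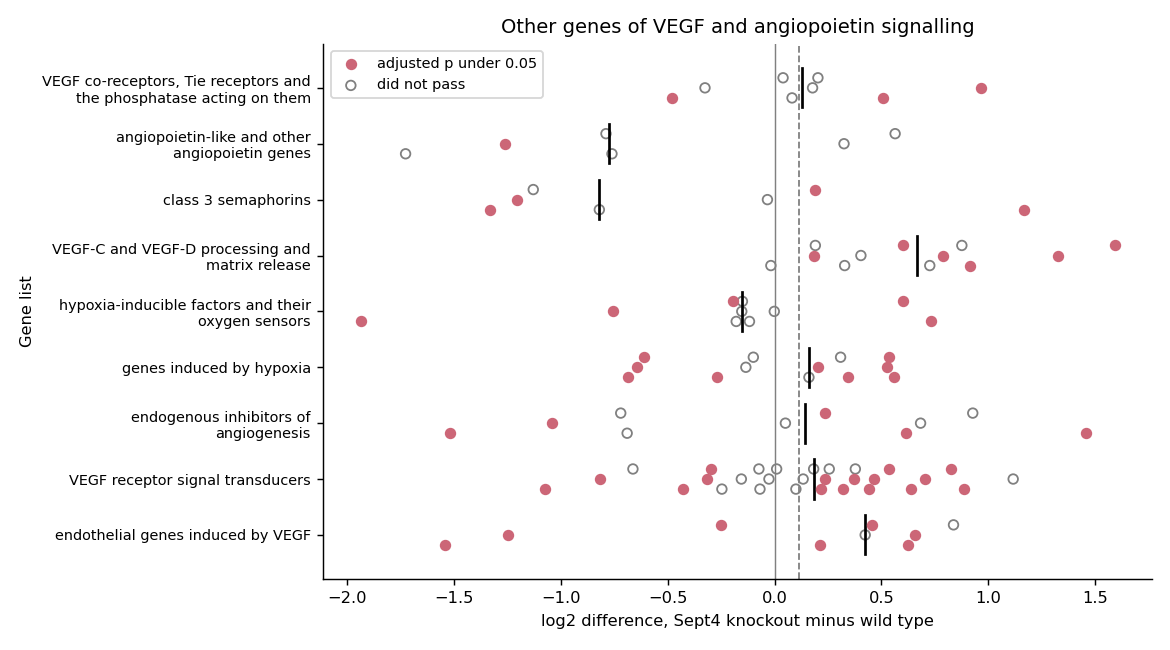
Log2 difference, knockout minus wild type, of each measured gene in 9 lists of genes that act with VEGFs and angiopoietins (filled points passed an adjusted p of 0.05 in limma, open points did not), with the median of each list as a black line and that of all probes as a dashed line. Passing genes lie on both sides of 0 in all lists but the angiopoietin-like genes, where 1 fell, and the processing genes, where 6 rose.

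Markers of other cells that carry these genes were measured beside them. Of 18 endothelial markers, 8 rose and 3 fell, and the mean log2 level of the list ran from 4.66 to 4.92 on wild-type arrays and from 4.83 to 4.92 on knockout arrays. Without wild-type replicate 3, 5 rose. The defining endothelial gene Pecam1 was dim and read 3.87 and 3.89, Cdh5 2.62 and 3.45 and Tie1 5.56 and 5.60 in wild-type and knockout cells, with adjusted p-values of 0.874, 0.259 and 0.769 in limma. The endothelial factor Sox18 fell by 1.31 and endomucin (Emcn) by 1.63, and Vwf rose by 2.12 from near the lowest values, a call lost on leaving out any array but wild-type replicate 2, at 0.0978 to 0.117. The other 7 that rose, named after their values were seen, were Fcgr2b by 1.13, Cldn5 by 0.82, Stab1 by 0.73, endoglin (Eng) by 0.60, Robo4 by 0.50, Egfl7 by 0.49 and Cd34 by 0.42, and the remaining one that fell was Icam2, by 0.83. The call of Cldn5 was lost without wild-type replicate 1 or 3 or knockout replicate 3, at 0.0615 to 0.0694, and that of Cd34 without wild-type replicate 3 or knockout replicate 1 or 2, at 0.0600 to 0.0641. Stab1 and Fcgr2b are known from liver sinusoidal endothelium and also from macrophages. Of 11 macrophage markers, 1 rose, 5 fell and 5 did not pass. Those that fell included C1qc by 1.32, Emr1, the F4/80 gene, by 1.27 and Cd14 by 1.01, and the one that rose was Clec4f, by 0.525. The mean level of the macrophage list ran from 6.91 to 6.99 on wild-type arrays and from 6.54 to 6.64 on knockout arrays. Of 15 stellate markers, 10 rose, led by Lrat with 2.41, Col3a1 with 2.09 and Cygb with 2.05. The 2 that fell were Acta2, by 0.56, and Des, by 0.41. The mean level of the stellate list ran from 7.83 to 7.94 on wild-type arrays and from 8.58 to 8.72 on knockout arrays. Without knockout replicate 2, 2 macrophage markers rose. No marker of these 3 lists lay at the lowest value on all arrays. The part of these cells in the differences of Vegfa, Flt1, Flt4 and Figf was not tested.

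Markers of 4 further cell types were measured too. Of 10 hepatocyte markers 3 rose and 2 fell, with Alb1 higher by 0.88, Ahsg higher by 0.49 and Fga lower by 0.57. Of 6 bile duct markers 0 rose and 2 fell, Spp1 by 1.26 and Cldn4 by 0.60. Of 10 lymphocyte markers 1 rose and 2 fell, with Cd3g at 0.33 and 1.98, near the lowest values, and Cd8a and Cd4 at differences of -0.99 and -0.50. Of 5 mesothelial markers 0 rose and 2 fell, Upk1b by 1.23 and the dim gene Gpm6a by 1.52. The call of Fga was lost without wild-type replicate 1 or knockout replicate 2, at 0.0547 and 0.0522, and that of Gpm6a without wild-type replicate 1, 2 or 3 or knockout replicate 1, at 0.0849 to 0.117. The call of Cd8a was lost on leaving out any array but wild-type replicate 3, at 0.0684 to 0.110, and that of Cd4 without wild-type replicate 1, 2 or 3 or knockout replicate 2, at 0.0692 to 0.119. Without wild-type replicate 1, 1 bile duct marker rose, and 3 lymphocyte markers rose without wild-type replicate 2 and 2 without knockout replicate 2.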

How the data were processed

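Total RNA of hepatic stellate cells was labelled with Cy5 and hybridised to single-colour arrays. The authors deposited log2 signals. The labels call them quantile normalised, but the values do not share one distribution across arrays: medians are equal at 5.02, while lowest values run from 0.00 to 0.32 and highest values average 15.7 in wild-type and 16.7 in knockout arrays. They were used as deposited. The base of the logarithm is not stated and was inferred from how far the values reach. No source used here gives the background correction, the scanner software or a genome build. Per the labels, dye was attached with a kit for microRNA to RNA of tumours, at odds with the series' design, and groups were taken from the sample titles. Probes were named from the platform annotation, where 16631 of 23473 probes had 1 symbol. No probe was filtered. Of the 10 symbols, 9 were current in RefSeq on GRCm38.p6 and 1 matched a synonym.

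The knockout was compared with the wild type by two-sided tests in limma 3.58.1 (lmFit, eBayes; R 4.3.3), with Benjamini-Hochberg adjustment over all probes and a threshold of 0.05. Each probe had 4 residual degrees of freedom, to which the variance prior contributed 1.11 more. The number of arrays limits the precision. The fit was also run on simulated data with independent noise and known changes. Those data held no shift of an array and none that depends on signal, so the run cannot test for such effects. A gene with several probes in a list was read from its brightest probe.

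The genes and lists were chosen with earlier results of these data known. From each pathway list the text names the passing genes with the greatest differences, up to 4, and from each cell type list up to 3. Any other list gene was named after its values were seen. The alternatives were quantile normalisation, cyclic loess, a linear offset at the 10th percentile, leaving out the dimmest 25% of probes or probes at an array's lowest value, a trended and robust variance prior, the replicate number as a block and leaving out each array. Figures were drawn with matplotlib 3.10.9.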

Additional observations from a re-analysis of the deposited data

How the results depend on the processing

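Under 13 alternatives, Figf, Vegfb, Vegfc, Pgf and Flt1 kept their direction and passed in each, with differences of 1.36 to 1.55, 0.39 to 0.58, -0.57 to -0.33, -0.46 to -0.32 and -0.93 to -0.84. Vegfa passed in 9, Angpt2 in 12, Angpt1 in 10 and Flt4 in 7, all with the same direction. Kdr never passed, and its difference changed sign without wild-type replicate 3, knockout replicate 1 and knockout replicate 3, with 0.058, 0.062 and 0.006, and was -0.114 at its lowest over the left-out arrays. With the replicate block, 5 of the 10 genes passed, 2 higher and 3 lower: Vegfa, Flt4, Angpt1 and Angpt2 lost their calls at adjusted p-values of 0.0542, 0.0799, 0.0611 and 0.0615. Same-numbered arrays did not deviate together over all probes, with correlations of 0.0077, -0.0013 and -0.0020. A correlation over all probes cannot show whether some genes shared an effect of the replicate number. Over the left-out arrays, 6 to 9 of the 10 genes passed, with 2 to 4 of them higher, and 2 without wild-type replicate 2 or knockout replicate 2. The move of the log ratio of Figf to Vegfc was 1.93 after quantile normalisation and 1.93 after cyclic loess. After quantile normalisation, that of Vegfa to Vegfb was -1.24 and that of Pgf to Vegfa 0.40. The same scaling gave -0.71 for Angpt2 to Angpt1 and 0.84 for Kdr to Flt1. Of all calls, 62.6% were higher with the deposited values, 52.5% with quantile-normalised and 51.5% with cyclic loess values. The counts of all probes that passed were 10025 as reported, 7724 with the replicate block, 11792 with the trended prior and 7954 to 9082 over the left-out arrays. Of 416 counts over the gene lists and alternatives, 356 were within 1.5 times the count reported and 60 were not. The 356 include counts of 0 that stayed at 0, and an equal count can hold different genes. No gene had a second probe, so ratios from other probes were not run. With 3 arrays a genotype, a difference as small as that of Kdr was not detectable.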
